A study of Rattus norvegicus with 40 samples.

Results

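Cultured neonatal rat ventricular myocytes that had undergone ischemia and reperfusion were compared with cells that had undergone ischemia alone, both at the labelled time of 30 min. The comparison held 8 of the study's 40 arrays, chosen by their titles: 4 of ischemia+reperfusion and 4 of ischemia, each group made of 2 duplicates from each of 2 cell preparations. All groups of the study, the 0 min groups included, shared the coverslip hypoxia model, and no genetic change or drug is named for any of them. In this model a glass coverslip laid on the monolayer limits the oxygen and medium that reach the cells. Total RNA was labelled with biotin and hybridized to Affymetrix rat genome arrays. The labels do not give the length of the reperfusion, nor whether the 30 min count ischemia, reperfusion or both, nor whether duplicates were separate cultures. Duplicates were averaged, and a shift between the preparations shared by all groups was taken out as a block. The p-values measure the spread between preparation averages that remains after this, pooled over all 10 groups of the study. Part of that spread may be technical.

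Ischemia lowers oxygen and nutrients together, and stabilizes hypoxia-inducible factors (HIF), which switch on genes of glycolysis and survival. The return of oxygen and medium brings a burst of reactive oxygen species, to which cells answer partly through NRF2, the activator of antioxidant genes. Both stresses can also trigger immediate early genes such as Fos, Jun and Egr1, transcription factors that are induced within minutes through growth factor and stress kinases and whose messages are short-lived.

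Of 18625 probe sets tested, 99 differed between the groups at an adjusted p under 0.05 (limma, Benjamini-Hochberg), which is 0.532% of those tested. There were 58 higher with ischemia+reperfusion (0.311%) and 41 lower (0.22%), and 82 of the 99 carried a single symbol, for 80 genes. Immediate early genes were on the lower side: Fos was 3.71-fold lower and Egr1 2.91-fold lower with ischemia+reperfusion. On the higher side stood 2 of 24 HIF targets tested, Ankrd37 at 3.99-fold and Pfkfb3 at 2.96-fold, and the NRF2 target Nqo1 at 1.6-fold. The median log2 change of the 24 was -0.04. Heart muscle genes such as Tnnt2 and Nppa, both read near the top of the scale, were not among the calls. At 0 min 62 probe sets already differed between the arms. No probe set passed when the 30 min difference was tested against that at 0 min (limma).

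Values are given on the log2(intensity + 16) scale after quantile normalization, where a difference of 1 is a doubling for bright probe sets and less than the true change for dim ones; negative intensities were set to 0, so the lowest possible value is 4. Errors are SE from the fit over n = 2 preparations per group. The called differences ran from 0.34 to 2.71 in size with a median of 0.62, and 8 higher and 8 lower probe sets reached a size of 1. At the median SE of 0.12, the 95% interval of a difference extended 0.26 to either side. The 4 arrays of one group lay wholly above the 4 of the other for 91 of the 99, against 13.6% of all tested probe sets. The 99 were chosen by a test on the same arrays, which favours such separation, so that count is a description.

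The count of calls depended on single arrays. Without a duplicate 1 it rose. It was 227 without that of ischemia preparation 1 and 223 without that of preparation 2. For ischemia+reperfusion these counts were 180 and 155. Without duplicate 2 of ischemia it was 76 for preparation 1 and 98 for preparation 2. Without duplicate 2 of ischemia+reperfusion it was 78 and 108. The counts of 76 and 78 came with 33 and 29 of the 82 probe sets with a symbol lost. On the deposited scale, without quantile normalization, the median change of all probe sets was 0.18 and the split moved from 58 higher and 41 lower to 66 higher and 9 lower, or from 58.6% to 88% higher. Each of the 99 kept its direction there, and of the 82 probe sets with a symbol 38 stayed past the threshold. Without the preparation as a block 52 probe sets passed, 46 of the 82 among them. All 99 had the same sign in both preparations.

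**Figure D1:**
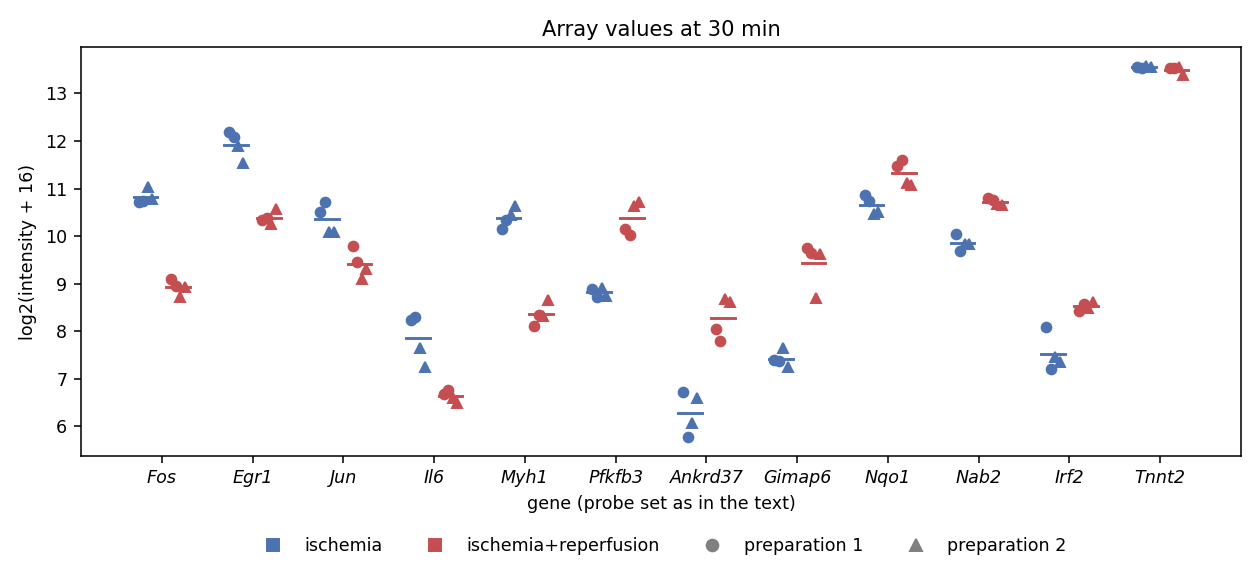
Array values at 30 min for 11 of the called genes and the troponin gene Tnnt2, on the log2(intensity + 16) scale; each point is 1 array, circles are preparation 1, triangles preparation 2, and bars the means of 4 arrays. Fos in the ischemia arrays lies between 10.71 and 11.04, above all 4 ischemia+reperfusion arrays, while the Tnnt2 points of both groups sit together near the top of the scale.

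The immediate early transcription factors were described first. Fos, a partner of Jun in the AP-1 dimer, read 9.09, 8.96, 8.71 and 8.92 in the ischemia+reperfusion arrays and 10.71, 10.73, 11.04 and 10.77 in the ischemia arrays; here and below the order is preparation 1 duplicates 1 and 2, then preparation 2 duplicates 1 and 2. The groups did not overlap, and the change of -1.89 ± 0.20 had an adjusted p of 0.0041 (limma). Egr1, a zinc finger activator induced by serum and stretch, read 10.34, 10.38, 10.26 and 10.56 against 12.19, 12.09, 11.89 and 11.53. All 4 ischemia arrays were again the high ones, in both preparations, and the change was -1.54 ± 0.14 (adjusted p = 0.0024).

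Jun was measured by 3 probe sets. The called one read 9.79, 9.46, 9.09 and 9.31 with ischemia+reperfusion and 10.50, 10.72, 10.09 and 10.09 with ischemia, a change of -0.94 ± 0.16 (adjusted p = 0.032) without overlap. The other two, the brightest among them, gave -0.50 (adjusted p = 0.094) and -0.68 (adjusted p = 0.097), so the call rests on a single probe set. It was lost without the preparation block (adjusted p = 0.11) and without ischemia+reperfusion preparation 1 duplicate 2 (adjusted p = 0.055).

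Of 17 immediate early transcription factors tested, each read from its brightest probe set, 2 fell (Fos and Egr1), none rose and 15 did not pass. Without adjustment, 6 had a p under 0.05, all lower with ischemia+reperfusion; over all probe sets tested this share was 15.6% (2900 of 18625), and such counts below are to be read against it. Their median change was -0.25, beside -0.0007 over the 10483 genes tested, of which 37 were higher and 17 lower. Egr2, a close relative of Egr1, gave -1.48 ± 0.36 and did not pass (adjusted p = 0.087), although its arrays of 7.12 to 7.86 lay below the 8.45 to 9.53 of ischemia. Atf3, a stress-induced repressor, gave -1.40 (adjusted p = 0.15), with -2.36 in preparation 1 and -0.45 in preparation 2. The list was not uniform. Nr4a1, an orphan nuclear receptor, was at -0.11, Fosb at -0.21, Srf, the factor that binds early gene promoters, at 0.17, and Fosl1, a late Fos relative, at 0.40, none of which passed.

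Further calls were single genes outside this list. Nab2, a co-repressor that binds EGR proteins, rose by 0.87 ± 0.16 (adjusted p = 0.048), from 10.04, 9.68, 9.84 and 9.84 with ischemia to 10.81, 10.75, 10.67 and 10.66. Dusp6, a phosphatase that switches off the kinase ERK, had 3 probe sets with changes of -0.69, -0.63 and -0.59. Only the first passed (adjusted p = 0.046; the others 0.18 and 0.21). Neither call held without the block (adjusted p = 0.088 for Nab2 and 0.11 for Dusp6). Nab2 also missed the threshold without ischemia preparation 1 duplicate 2 (adjusted p = 0.059), and Dusp6 did without that array (0.051), without ischemia+reperfusion preparation 1 duplicate 1 (0.061) and without preparation 2 duplicate 1 (0.092). Max, the dimer partner of MYC proteins, rose by 0.43 on the brighter of 2 probe sets (adjusted p = 0.025; the other gave 0.21, adjusted p = 0.54), but not without ischemia preparation 1 duplicate 2 (0.075).

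Among 19 other early response genes none passed, and 4 had an unadjusted p under 0.05 (limma), against 15.6% of all probe sets. Ccn1, a secreted matricellular protein, came nearest at -0.97 ± 0.19 (adjusted p = 0.053), with its arrays apart (9.47 to 10.03 against 10.50 to 10.81). Against that side, the small GTPase Rrad was at 0.92 (adjusted p = 0.35) and the kinase Sik1 at 0.81 (adjusted p = 0.30). None of 7 dual-specificity phosphatases and none of 11 Kruppel-like factors passed on their brightest probe sets; 1 and 2 had an unadjusted p under 0.05. A dimmer probe set of Klf15, a repressor of cardiac growth genes, gave -0.59 (adjusted p = 0.035, and 0.11 without the block), where its brightest gave -0.28 (adjusted p = 0.58). That call was also lost without ischemia+reperfusion preparation 1 duplicate 2 (0.057) and ischemia preparation 1 duplicate 2 (0.17).

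**Figure D2:**
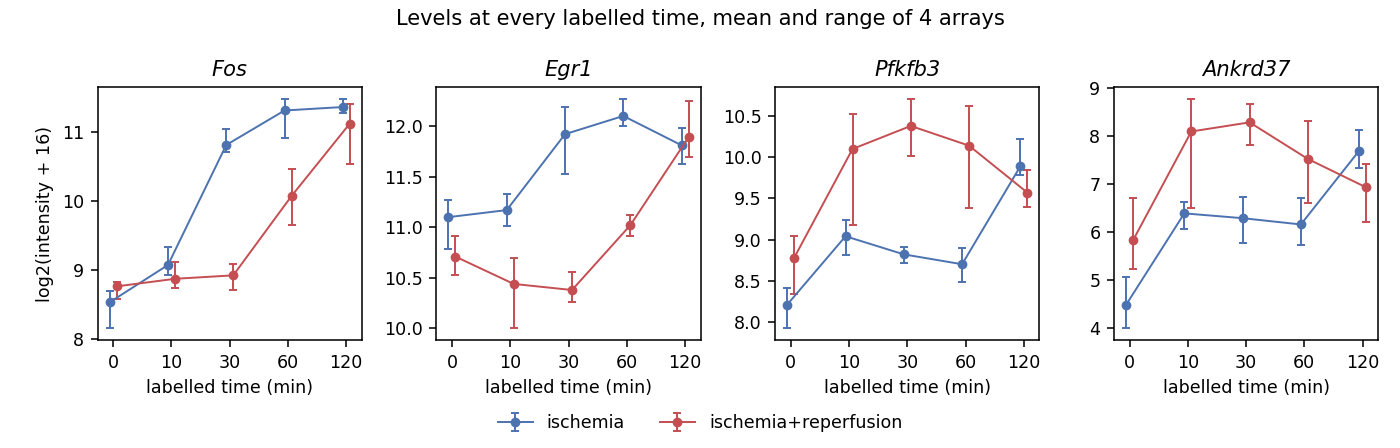
Levels of Fos, Egr1, Pfkfb3 and Ankrd37 at every labelled time in min (not to scale on the horizontal axis) for ischemia and ischemia+reperfusion, on the log2(intensity + 16) scale; points are means and bars the range of 4 arrays. At 30 min Fos averaged 10.81 with ischemia and 8.92 with ischemia+reperfusion, and at 120 min 11.36 and 11.12, with 1 array of each arm at 120 min whose Hspa1a level lay among those of the other arm.

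The levels at the other labelled times show where each arm stood, as values side by side, since these comparisons use the same 30 min arrays. Fos averaged 8.53 ± 0.25 (SD, n = 4 arrays) at 0 min and 10.81 ± 0.15 at 30 min with ischemia alone, but 8.76 ± 0.12 and 8.92 ± 0.16 with ischemia+reperfusion. With ischemia the change from 0 min was 2.28 (adjusted p = 0.0018); with ischemia+reperfusion it was 0.16 (adjusted p = 0.80). In the reperfused arm the mean was 10.07 at 60 min and 11.12 at 120 min, where 1 array of each arm had an Hspa1a level among those of the other arm. Egr1 changed by 0.82 from 0 min with ischemia (adjusted p = 0.068) and by -0.33 with ischemia+reperfusion (adjusted p = 0.31), and neither passed. On its called probe set Jun changed from 0 min by -0.38 with ischemia (adjusted p = 0.28) and by -0.85 with ischemia+reperfusion (adjusted p = 0.031). Its brightest probe set gave 0.09 (adjusted p = 0.79) and -0.55 (adjusted p = 0.073), and neither passed.

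HIF targets gave the second group. Ankrd37, a small ankyrin repeat protein induced by hypoxia, read 8.04, 7.80, 8.67 and 8.62 with ischemia+reperfusion and 6.72, 5.77, 6.07 and 6.59 with ischemia, a rise of 2.00 ± 0.38 (adjusted p = 0.048). It missed the threshold without the block (adjusted p = 0.051) and without ischemia preparation 1 duplicate 2 (0.069). Pfkfb3, which makes the fructose bisphosphate that activates phosphofructokinase and so glycolysis, read 10.15, 10.02, 10.64 and 10.71 against 8.89, 8.71, 8.91 and 8.75. The rise of 1.57 ± 0.24 (adjusted p = 0.022) appeared on its brighter probe set; the dimmer one gave 0.69 (adjusted p = 0.36). For both genes all 4 ischemia+reperfusion arrays were above all 4 ischemia arrays, and preparation 2 was the higher of the reperfused preparations.

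The promoters of these genes are shown because ACGTG, the core of the hypoxia response element, lies in both. They were read from RefSeq sequences of the GRCr8 build, 250 bases before to 50 after the annotated start site, 5′ to 3′ on the gene's strand; capitals mark ACGTG on either strand, merged where both strands match to CACGTG.
Pfkfb3: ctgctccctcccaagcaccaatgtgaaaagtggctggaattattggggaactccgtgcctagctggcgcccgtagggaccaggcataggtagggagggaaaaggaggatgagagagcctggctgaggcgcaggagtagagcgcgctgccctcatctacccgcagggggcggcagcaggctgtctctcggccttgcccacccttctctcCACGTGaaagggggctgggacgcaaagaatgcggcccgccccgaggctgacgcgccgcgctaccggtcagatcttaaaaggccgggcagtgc
Ankrd37: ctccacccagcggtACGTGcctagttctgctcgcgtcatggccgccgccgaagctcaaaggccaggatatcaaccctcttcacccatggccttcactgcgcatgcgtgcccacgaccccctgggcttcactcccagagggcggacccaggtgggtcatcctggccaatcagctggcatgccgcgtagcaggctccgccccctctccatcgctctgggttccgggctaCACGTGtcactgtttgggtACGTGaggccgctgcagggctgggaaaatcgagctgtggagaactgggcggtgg

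The window of Pfkfb3 lies at chr17:71944683-71944982 on the plus strand and holds the stretch once, from position -42 to -37. That of Ankrd37, at chr16:53001257-53001556 on the plus strand, holds it at -236 to -232, at -23 to -18 and across the start site at -4 to 1. ACGTG was present in 19.7% of 27457 rat promoter windows of the same length, so it is a common word. Of the called genes with a window, it was found for 5 of 39 that rose (12.8%) and 9 of 29 that fell (31.0%). The Egr1 window held 2 CArG boxes, the motif bound by serum response factor, CCATATTAGG at -105 to -96 and CCATATATGG at -83 to -74. A CArG box was found in 1.64% of all windows, in no other of the 29 windows of genes that fell and in none of the 39 that rose. These matches describe the sequence only.

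Across the HIF target list, 2 of 24 genes tested rose, none fell and 22 did not pass; the median change was -0.04. The pattern was split. Ddit4, an inhibitor of mTOR, was at 1.08 (adjusted p = 0.094), the lipid droplet protein Hilpda at 1.02 (adjusted p = 0.18) and the clock-linked repressor Bhlhe40 at 0.59 (adjusted p = 0.095), each with its arrays apart, whereas other classical targets were near 0: Vegfa at -0.04, the HIF hydroxylase Egln3 at -0.10, Pdk1 at -0.15 and the mitophagy receptor Bnip3 at -0.16. Of 20 genes of glucose transport and glycolysis none passed, 1 had an unadjusted p under 0.05 and the median was -0.05; the transporter Slc2a1 was at -0.09, Hk2 at -0.12 and Ldha at -0.07. The highest value of the list, 0.09 for the enolase gene Eno3, was far below that of Pfkfb3. From 0 min to 30 min, Pfkfb3 changed by 0.61 with ischemia (adjusted p = 0.26) and by 1.60 with ischemia+reperfusion (adjusted p = 0.017), and Ankrd37 by 1.80 (adjusted p = 0.11) and 2.45 (adjusted p = 0.018).

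Antioxidant genes of the NRF2 list gave 1 call among 18. Nqo1, a quinone reductase, read 11.48, 11.61, 11.11 and 11.08 with ischemia+reperfusion and 10.87, 10.74, 10.47 and 10.50 with ischemia. The groups did not overlap, preparation 1 was higher in both, and the rise was 0.68 ± 0.095 (adjusted p = 0.015). Without the preparation block the adjusted p was 0.22. In the reperfused arm Nqo1 changed by 0.52 from 0 min (adjusted p = 0.031), and in the ischemia arm by -0.11 (adjusted p = 0.64).

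Other members of the list had positive values that did not pass. Hmox1, which degrades heme, read 11.86, 11.95, 12.74 and 13.07 against 11.48, 11.42, 11.19 and 11.25, a difference of 1.07 (adjusted p = 0.14) that was 0.46 in preparation 1 and 1.69 in preparation 2. Sulfiredoxin, Srxn1, differed by 1.24 (adjusted p = 0.27), with 0.40 and 2.08 in the preparations. The glutathione synthesis subunits Gclm and Gclc were at 0.45 and 0.36, and thioredoxin reductase Txnrd1 at 0.41. At an unadjusted p under 0.05, which 15.6% of all probe sets reached, 8 of the 18 were higher and none lower; the list median was 0.12. Enzymes that scavenge superoxide and peroxide stood near 0, with Sod1 at -0.01, Cat at 0.01 and Gpx1 at -0.01.

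**Figure D3:**
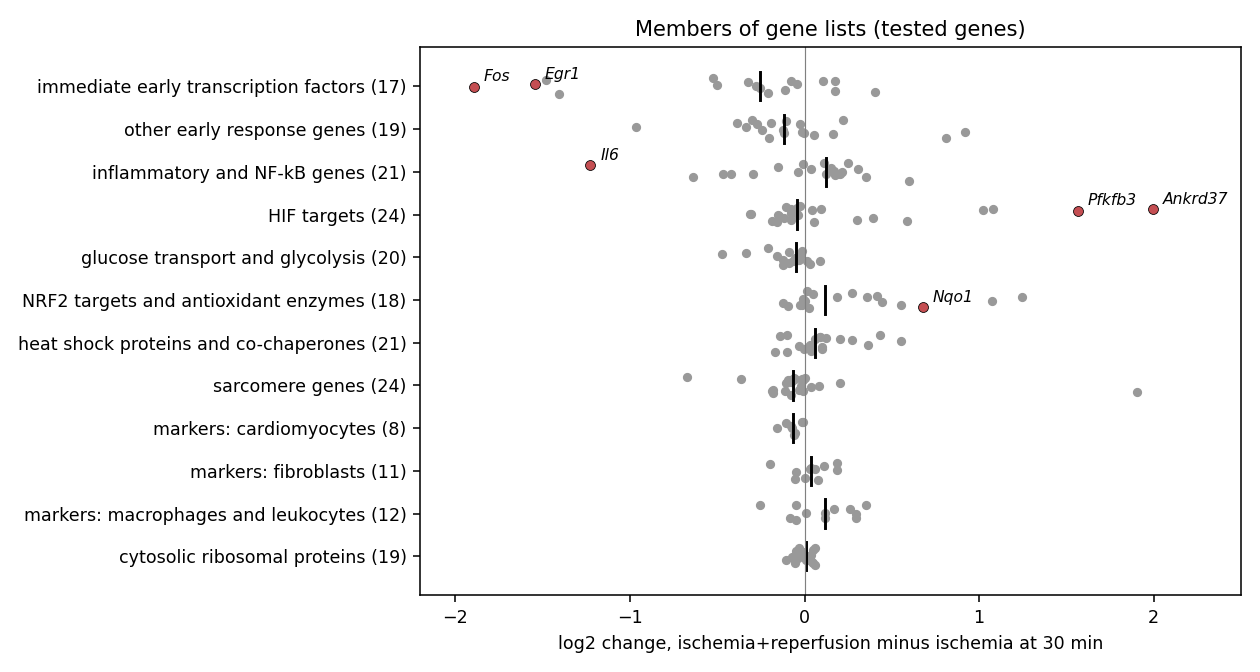
Log2 changes (ischemia+reperfusion minus ischemia at 30 min) of the tested members of 12 gene lists, with the number tested in brackets; each point is a gene, red points passed the test and are named, and black bars are list medians. The lists of immediate early factors and HIF targets have long tails in opposite directions around medians of -0.25 and -0.04, while the ribosomal protein and cardiomyocyte marker points lie close to 0.

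Inflammatory genes gave a single call of 21. Il6, the interleukin-6 cytokine, read 6.67, 6.77, 6.60 and 6.48 with ischemia+reperfusion and 8.23, 8.30, 7.64 and 7.25 with ischemia, a fall of -1.23 ± 0.23 (adjusted p = 0.044). The ischemia arrays were all higher, and further apart in preparation 1 (-1.54) than in preparation 2 (-0.91). The call was lost without the block (adjusted p = 0.12) and without ischemia preparation 2 duplicate 1 (0.056). The chemokine Cxcl1 was at -0.47 (adjusted p = 0.055) and cyclooxygenase 2, Ptgs2, at -0.42 (adjusted p = 0.21), whereas Ccl2 was at 0.04 and Il1b at 0.35. Over the list the median was 0.12. Zc3h12a, an RNase that degrades cytokine messages including Il6, fell by 0.65 (adjusted p = 0.035); it missed the threshold without ischemia+reperfusion preparation 1 duplicate 2 (0.10).

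Other genes with large rises had little in common by function. Gimap6, a GTPase best known from lymphocytes, read 9.74, 9.65, 8.70 and 9.63 against 7.39, 7.38, 7.65 and 7.24, a rise of 2.02 ± 0.28 (adjusted p = 0.015). Irf2, a transcription factor that competes with Irf1 at interferon response elements, had the smallest adjusted p of all (0.0017), with 8.42, 8.57, 8.48 and 8.62 against 8.09, 7.20, 7.45 and 7.35 and a rise of 1.00 ± 0.083. It missed the threshold without ischemia preparation 1 duplicate 2 (adjusted p = 0.059). Icmt, which methylates prenylated proteins, rose by 1.02 ± 0.10 (adjusted p = 0.0032), while its other probe set gave 0.33 (adjusted p = 0.58). Zfp703, a zinc finger co-repressor, rose by 0.87 (adjusted p = 0.012), and the receptor tyrosine kinase Erbb2, which carries neuregulin signals in heart muscle, by 0.55 (adjusted p = 0.013). Erbb2 did not pass without ischemia preparation 1 duplicate 2 (0.056). From 0 min, Gimap6, Irf2, Icmt, Zfp703 and Erbb2 changed by 0.13, -0.26, 0.23, 0.46 and 0.14 with ischemia+reperfusion. With ischemia these values were -0.44, -0.51, -0.21, 0.08 and -0.39, and none of either arm passed (limma).

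Several of the other rises rested on dim or scattered arrays. Uox, urate oxidase, had the largest change at 2.71 ± 0.41 (adjusted p = 0.023), but 3 of its 4 ischemia arrays were at the floor of 4 and the fourth read 7.56, among the 7.43 to 7.80 of ischemia+reperfusion. The groups overlapped, and without ischemia preparation 2 duplicate 2 the adjusted p was 0.28. From 0 min Uox changed by -2.65 with ischemia (limma adjusted p = 0.045) and by 0.14 with ischemia+reperfusion (0.94). The inhibitory receptor Cd300a rose by 1.31 (adjusted p = 0.032), with ischemia arrays from 4.89 to 7.22 and ischemia+reperfusion arrays from 7.29 to 7.40. It did not pass without the block (0.13) or without ischemia preparation 1 duplicate 2 (0.18). Cd300a changed from 0 min by -0.90 with ischemia and by 0.09 with ischemia+reperfusion, and neither passed. Grip2, a synaptic scaffold protein, rose by 1.19 (adjusted p = 0.045), but not without ischemia+reperfusion preparation 1 duplicate 2 (0.055) or ischemia preparation 2 duplicate 1 (0.051). Its change from 0 min was 0.14 with ischemia and 1.39 with ischemia+reperfusion (limma adjusted p = 0.81 and 0.018). The zinc finger gene Zbtb47 rose by 1.00 on a dim probe set (adjusted p = 0.035), where the brighter one gave 0.41 (adjusted p = 0.055), and not without either duplicate 2 of ischemia (0.055 and 0.053) or ischemia+reperfusion preparation 2 duplicate 2 (0.12). Ptpn23, a phosphatase relative of endosomal sorting, rose by 1.03 (adjusted p = 0.046) with overlapping groups; the call was lost without the block (0.12) and without any of 4 arrays, both duplicates 2 of each group (0.057 to 0.20).

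Among the other falls, Myh1, the fast skeletal myosin heavy chain IIx, had 3 of 5 probe sets called. The largest read 8.11, 8.34, 8.31 and 8.65 against 10.14, 10.33, 10.45 and 10.64, a change of -2.04 ± 0.35 (adjusted p = 0.035). The other called sets gave -0.94 and -0.90, and of the others, which did not pass, one gave -0.63 (adjusted p = 0.077) and the other 0.35 (adjusted p = 0.49). Myosin heavy chains are near-identical paralogs, so which of them these probe sets read is uncertain; the cardiac genes Myh6 and Myh7 were both at -0.08 and did not pass. The linker histone gene H1f4 fell by 1.13 ± 0.14 (adjusted p = 0.012), from 8.09, 8.97, 8.39 and 8.75 to 7.41, 7.36, 7.29 and 7.61. Slc46a3, a lysosomal transporter, fell by 0.84 (adjusted p = 0.0034, and 0.088 without the block), and the splicing protein gene U2surp by 0.84 (adjusted p = 0.019), while the brighter probe set of U2surp gave -0.12 (adjusted p = 0.42).

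The small GTPase genes Rab15 and Rab33a were lower with ischemia+reperfusion by 1.28 and 1.04 (adjusted p = 0.035 and 0.044). From 0 min Rab15 changed by 1.49 with ischemia (limma adjusted p = 0.045) and by -0.06 with ischemia+reperfusion (0.96). Rab33a changed by 0.79 with ischemia and by -0.26 with ischemia+reperfusion, and neither passed. A brighter Rab15 probe set gave -0.47 with overlapping arrays (adjusted p = 0.39). Rab15 was lost without ischemia preparation 2 duplicate 2 (0.17) and Rab33a without ischemia+reperfusion preparation 2 duplicate 2 (0.21). Cxxc4, an inhibitor of Wnt signalling, fell by 0.77 (adjusted p = 0.042, and 0.13 without the block), and did not pass without ischemia+reperfusion preparation 1 duplicate 1 (0.061). Ddr2, a collagen receptor of fibroblasts, fell by 1.68 (adjusted p = 0.048) on a dim probe set with 1 ischemia+reperfusion array at the floor, while its 2 brighter sets gave -0.09 and -0.05. That call was lost without the block (0.13) and without any of 3 arrays (0.051 to 0.075). Ctnnb1, the Wnt effector beta-catenin, had 1 of 3 probe sets called at -0.51 (adjusted p = 0.013); the brightest gave -0.07. Likewise Psmd14, a proteasome deubiquitinase, had 1 of 3 called at -0.50 (adjusted p = 0.016), and its brightest was at 0.005. Both single calls were lost without ischemia+reperfusion preparation 1 duplicate 2 (0.057 and 0.13), and that of Psmd14 also without 2 other arrays (0.051 and 0.19).

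Structural and stress gene lists held almost no calls. Of 24 sarcomere genes none passed and 3 had an unadjusted p under 0.05. Tnnt2, cardiac troponin T, read 13.39 to 13.55 with ischemia+reperfusion and 13.53 to 13.58 with ischemia on its brightest probe set. A dim Tnnt2 probe set gave -0.72 and did not pass (adjusted p = 0.11), with 6.32 to 6.58 against 6.89 to 7.41. The largest value of the list was Klhl40, a stabilizer of thin filament proteins, at 1.90 ± 0.53 (adjusted p = 0.12). The atrial natriuretic peptide gene Nppa was at -0.06. None of 21 heat shock and co-chaperone genes passed, and 2 had an unadjusted p under 0.05. The inducible Hspa1a was at 0.55 ± 0.59 (adjusted p = 0.72), with 9.60 to 10.30 against 9.23 to 9.42, without overlap. Its SE comes from the fit over all 10 groups. The SD of Hspa1a was 0.31 with ischemia+reperfusion and 0.09 with ischemia at 30 min, but 1.70 and 1.66 at 120 min. The miss is thus not a measure of the 30 min arrays alone. Of 23 genes of endoplasmic reticulum stress none passed, although 9 were lower and 1 higher at an unadjusted p under 0.05 (15.6% of all probe sets). None of 27 respiratory chain genes and none of 19 ribosomal protein genes passed, and none had an unadjusted p under 0.05. Psmd11 was the only call of 17 ubiquitin and proteasome genes, at 0.43 (adjusted p = 0.046, and 0.071 without the block), where its other probe set gave 0.08 (adjusted p = 0.60); it also missed the threshold without any of 3 arrays (0.050 to 0.056). The other 12 lists of functions held no call (limma), and at an unadjusted p under 0.05 between 0 and 3 genes each. List medians smaller than the 0.18 by which the deposited scale shifts all probe sets carry no direction of their own.

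Markers of the cells present were compared as well. All 8 cardiomyocyte markers tested were detected at high levels, and their summed normalized intensity ran from 69323 to 73347 with ischemia+reperfusion and from 73918 to 76284 with ischemia, ranges that did not overlap. None of them passed and none had an unadjusted p under 0.05. Other cells were also present: sums of 11 fibroblast markers ran from 46809 to 53073 against 43176 to 52237, of 12 macrophage and leukocyte markers from 8187 to 9430 against 6815 to 9174, of 8 smooth muscle and pericyte markers from 24715 to 28457 against 27858 to 29081, and of 8 endothelial markers from 3247 to 3757 against 3148 to 4419. Neuronal and Schwann cell markers were dim, with sums of 4 from 768 to 1148 against 627 to 862, and the 1 red cell marker tested, Hemgn, ran from 72 to 118 against 91 to 106. On the brightest probe set of each gene, no tested marker of these lists was called or at the floor in any of the 8 arrays. A dimmer probe set of the fibroblast marker Ddr2 was called, with 1 ischemia+reperfusion array at the floor. At an unadjusted p under 0.05 there were 2 of the 12 macrophage markers, a share near the 15.6% of all probe sets. In whole cultures, fewer cells of a type and less RNA per cell cannot be told apart, and the part of these cells in the calls above, Gimap6, Cd300a, Il6 and Ddr2 among them, was not tested.

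The arms were also set against each other at the other labelled times, on arrays that share no sample with the 30 min groups but come from the same preparations and share the variance estimate. At 0 min 62 probe sets differed between the arms, at 60 min 1002, and at 10 and 120 min none (limma; 1860 and 1333 at an unadjusted p under 0.05). In the series' list of samples, the ischemia arrays of 0, 30 and 60 min come first, before all others. The labels name no batch, and an effect of this order cannot be told apart from reperfusion at 30 min. In the ischemia arm Zfp703 averaged 7.37, 7.44 and 7.4 at 0, 30 and 60 min, and 8.1 and 8.24 at 10 and 120 min. Fos averaged 8.53, 10.81 and 11.31 against 9.07 and 11.36, without such a split. How many of the 99 follow this order was not counted. The counts at 0 and 120 min depended on single arrays. In ischemia preparation 2 duplicate 2 at 120 min the heat shock gene Hspa1a read 13.15, where the other ischemia arrays read 9.62 to 10.19, and in ischemia+reperfusion preparation 2 duplicate 1 it read 9.75, where the others read 13.00 to 13.25. Without that pair, an alternative chosen after the data were seen, 669 probe sets differed at 120 min, 408 higher and 261 lower. Without ischemia preparation 1 duplicate 1 at 0 min 157 differed at 0 min. Of the 99 called at 30 min, 16 were also called at 0 min, all in the same direction, which is 16.2% of the 30 min calls and 25.8% of the 0 min calls (26, or 26.3% and 16.6%, without the 0 min array). With the 60 min calls 71 were shared, all in the same direction, 71.7% of the 30 min calls and 7.09% of those at 60 min. The sign at 30 min was kept by 90 of the 99 at 0 min, 84 at 10 min, 98 at 60 min and 62 at 120 min (69 without the pair). The share of all tested probe sets that kept their sign was not computed, so these counts stand without a background. Without the pair 15 of the 99 were also called at 120 min, in the same direction, 15.2% of the 30 min calls and 2.24% of those at 120 min. The median size of the arm difference in the 99 was 0.62 at 30 min, 0.33 at 0 min, 0.22 at 10 min, 0.54 at 60 min and 0.17 at 120 min (0.20 without the pair). The 99 were chosen for their difference at 30 min, which favours a larger size there.

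**Figure D4:**
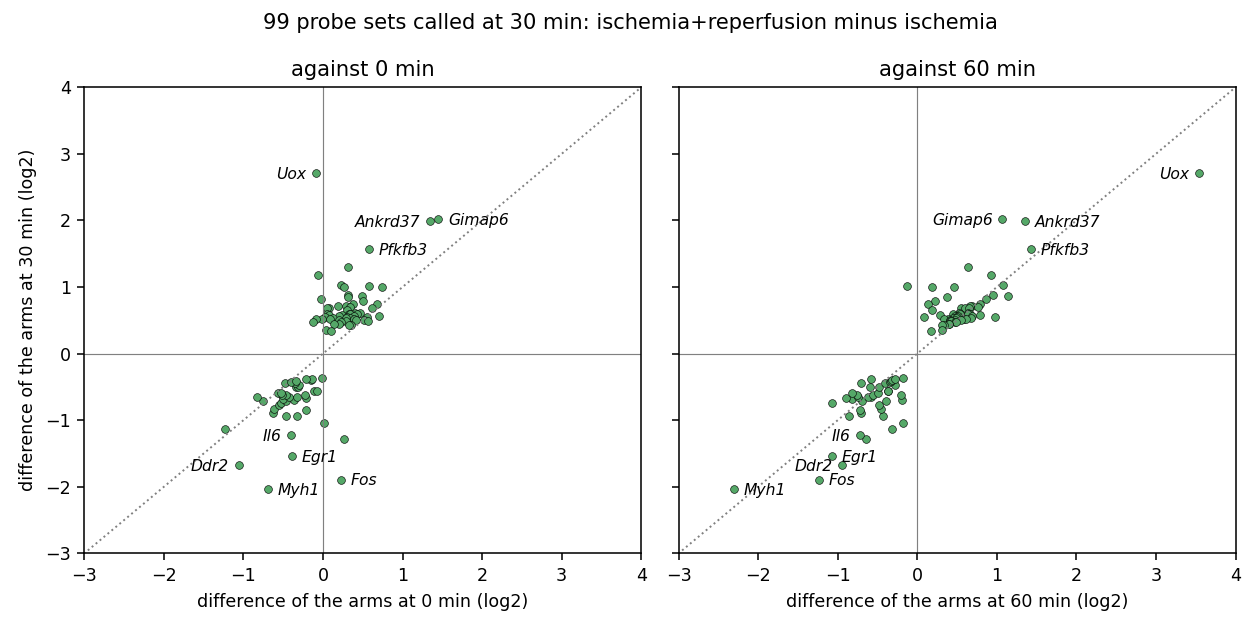
Differences between the arms (ischemia+reperfusion minus ischemia, log2) of the 99 called probe sets at 30 min on the vertical axis, against the same difference at 0 min (left) and at 60 min (right); the dotted line marks equal differences. Of the 99, 98 share their sign with 60 min and 90 with 0 min, and the share over all probe sets was not computed. Fos at 0.22 and Uox at -0.08 are among the 9 with the other sign at 0 min.

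An arm difference was thus present for some of these genes at 0 min. Irf2 differed by 0.74 at 0 min (adjusted p = 0.0095) and by 1.00 at 30 min, and H1f4 by -1.24 (adjusted p = 0.0095) and -1.13; the differences of these differences were 0.26 and 0.10. Gimap6 stood at 1.45 at 0 min and 2.02 at 30 min (difference 0.57, unadjusted p = 0.18), and Ankrd37 at 1.35 and 2.00 (difference 0.65, unadjusted p = 0.25). Fos was at 0.22 and -1.89, Egr1 at -0.39 and -1.54, Nqo1 at 0.05 and 0.68, and Pfkfb3 at 0.58 and 1.57. When the 30 min difference was tested against that at 0 min, no probe set passed (limma; 1072 at an unadjusted p under 0.05, smallest adjusted p 0.12). Among the 99 this difference had an unadjusted p under 0.05 for 46, but these were chosen for a large value at 30 min, so that count is a description. The SE of the difference of differences had a median of 0.17, and its 95% interval extended 0.37 to either side. With the dim probe sets included 7 passed, and with arrays taken as samples 5.

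Against the other times a few probe sets did pass. The arm difference of Egr1 at 30 min differed from that at 120 min by -1.63 ± 0.20 (adjusted p = 0.030), with an arm difference of 0.09 at 120 min. Slc46a3 differed from 120 min by -1.01 (adjusted p = 0.030). Irf2 differed from both 10 min (0.99, adjusted p = 0.032) and 120 min (1.05, adjusted p = 0.030). The arms differed in Irf2 at 0 min (0.74) and at 60 min too (0.46, limma adjusted p = 0.016). With ischemia Irf2 averaged 8.55 at 10 min and 8.58 at 120 min, against 7.52 at 30 min. Its means in the reperfused arm lay between 8.41 and 8.78 at all times. The orphan receptor gene Gpr12 (0.94), Psmd14 (-0.76) and an unnamed probe set (-0.62) differed from 10 min, with adjusted p between 0.032 and 0.046. The comparison with 120 min includes the pair of arrays that stood apart there. Without it 54 probe sets passed in place of 3, and Egr1 (-1.65, adjusted p = 0.0073), Slc46a3 (-0.83, 0.049) and Irf2 (0.94, 0.0091) were among them. Against 60 min none passed (limma; 741 at an unadjusted p under 0.05).

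The placement of the arrays bears on these comparisons. When each of the 8 was correlated with the mean profile of every group, itself left out, the 4 ischemia arrays were each nearest to ischemia at 60 min (0.329 to 0.475, against 0.256 to 0.391 for their own group). Of the ischemia+reperfusion arrays 1 was nearest to its own group, 2 to ischemia+reperfusion at 60 min and 1 to ischemia+reperfusion at 10 min. No array was nearest to a group of the other arm. No pair among the 8 arrays held identical values.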

How the data were processed

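The deposited values were Affymetrix probe set intensities on a linear scale, 31042 per array, of which 15.8% were negative; which algorithm and scaling the authors used is not given in the sources used here. Extraction on spin columns and biotin labelling are per the labels' protocols. Array medians of the 8 arrays ran from 100.7 to 145.3, and the number of arrays limits the precision. Values were quantile-normalized over 40 arrays, floored at 0 and transformed as log2(value + 16). Probe sets with a mean above the 40th percentile (6.48) were tested. Duplicates of a preparation were averaged, and the 20 averages of 10 groups were fitted with limma 3.58.1 in R 4.3.3, with the preparation as block (9 residual degrees of freedom, prior 2.27). Moderated two-sided tests were adjusted by Benjamini-Hochberg over all probe sets tested. The removal of single arrays from the comparisons at 0 and 120 min was added after the data were seen. The code was tested on simulated data.

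The labels give the preparation of each array. As a check, deviations of same-preparation averages from their group means correlated with a median r of 0.184 over 45 pairs of groups (-0.178 to 0.526; 34 over 0.1), and 0.294 for the 2 groups compared.

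Symbols came from GEO's platform annotation: 20826 probe sets had 1 symbol, 436 several and 9780 none. Genes were named by a rule: up to 12 called genes a direction by size, up to 4 members of each of 33 lists by p with the lowest and highest, and Hspa1a, Fos, Nppa, Tnnt2 and Myh6; other called genes were named after their values were seen. The brightest tested probe set stood for a gene in lists. The members, lists and rules were chosen with earlier results of these data known. Promoters came from RefSeq (GRCr8); 39 of 45 called genes that rose and 29 of 35 that fell had one, and those of Fos and Jun were not used here.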

Additional observations from a re-analysis of the deposited data

Results flagged for a closer look

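In 7 of 60 groups of 4 arrays looked at (30 named probe sets in both arms), 1 array stood apart from the other three by more than Dixon's 95% limit, which chance passes in about 1 in 20 groups. Uox read 7.56 in ischemia preparation 2 duplicate 1, and 4, the floor, in the others. Gimap6 read 8.70 in ischemia+reperfusion preparation 2 duplicate 1, where the others read 9.63 to 9.74, and the same array had Rab15 at 6.19, below 6.57 to 6.60. Icmt was at 6.51 in ischemia preparation 2 duplicate 2 (others 6.71 to 6.74) and Slc46a3 at 7.25 in ischemia preparation 1 duplicate 2 (others 7.67 to 7.68). Cxxc4 was at 5.86 in ischemia+reperfusion preparation 1 duplicate 1 (others 6.34 to 6.42), and the troponin gene Tnnt2 at 13.39 in ischemia+reperfusion preparation 2 duplicate 2 (others 13.53 to 13.55).

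The difference between the arms at 30 min was not the one found at other times for a few probe sets, by limma's test of the difference of differences (Benjamini-Hochberg over 18625 probe sets). Against 10 min these were Gpr12 (0.938), Irf2 (0.986), Psmd14 (-0.758) and an unnamed probe set (-0.623). Against 120 min they were Egr1 (-1.63), Slc46a3 (-1.01) and Irf2 (1.05), with 120 min groups that hold a pair of arrays standing apart. Without that pair these gave -1.65, -0.83 and 0.94 and stayed past the threshold. For Irf2 the arms also differed at 0 min (0.74) and at 60 min (0.46).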

How the results depend on the processing

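The 99 calls kept their direction under all alternatives run, though the filter at the 60th percentile tested 63 of them. Egr1, Fos and Gimap6 stayed past the threshold in all 22, and Pfkfb3 in 21. Fewer calls came without the replicate block (52; 29 higher, 23 lower), which also lost 36 of the 82 named calls, and on the deposited scale (75; 66 higher, 9 lower). More came with log2(value + 64) (163; 97 and 66), no filter (91 higher), the 40 arrays as samples (987; 582 and 405), the same with duplicateCorrelation (679; 402 and 277), the 8 arrays alone (820; 427 and 393), when the outlying 0 min ischemia array was dropped (192; 111 and 81) and when a pair of 120 min arrays standing apart was dropped (166; 108 higher). Preparation 1 alone gave 510 (286 and 224) and preparation 2 alone 37 (20 and 17). Leaving out 1 array gave 76 to 227 calls, 43 to 146 higher and 24 to 84 lower. Tests of the 30 min against the 0 min difference passed for 0 probe sets as reported, 7 with no filter, 5 with arrays as samples, 5 with duplicateCorrelation, 10 in preparation 1, 1 in preparation 2, and 0 to 1 when 1 array was left out. Without the pair of 120 min arrays, chosen after the data were seen, the arms differed at 120 min in 669 probe sets in place of 0, and 54 in place of 3 passed against 120 min; without the 0 min array, 157 in place of 62 differed at 0 min. Tests against 10 and 60 min were not repeated. Fits on arrays treat duplicates as separate samples, which the labels do not state. The cause of these shifts was not tested. Dim probe sets, with arrays at or near the floor, limit the values of Uox and Ddr2.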

Other observations

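Gene groups with no call showed some values worth giving. Of 23 genes of endoplasmic reticulum stress and the integrated stress response, 9 were lower and 1 higher at an unadjusted p under 0.05 (15.6% of all probe sets), with a median change of -0.10 and 5 lower and 1 higher members whose arrays did not overlap (13.6% of all probe sets). The cardiac coactivator Myocd, which drives smooth and heart muscle genes with serum response factor, was at -0.57 (adjusted p = 0.089). Pdk4, a mitochondrial kinase that inhibits pyruvate dehydrogenase, was at -0.74 (adjusted p = 0.15). The Kruppel-like repressor Klf11 was at -0.46 (adjusted p = 0.094). Myh11, the smooth muscle myosin, read 4.56 in ischemia+reperfusion preparation 2 duplicate 1 and 7.73 to 8.43 in the other 7 arrays.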
